A study of Mus musculus with 15 samples.

Results

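The comparison described here sets 2 groups of mouse leukaemia libraries against each other, LTearly (4 libraries, replicates 1 to 4) and LTlate (3 libraries, replicates 2 to 4). These 7 of the 15 samples of the series were taken by their labels, and every gene that could be tested was examined. All libraries hold RNA of cells sorted from bone marrow, and the strain is C57BL/6. The labels describe a transgenic line made from embryonic stem cells that received a human MLL-AF9 cDNA, in a doxycycline-inducible Cre exchange system called A2Lox-cre. Chimeras were crossed to C57BL/6, and females heterozygous at both loci were used. Both groups are taken to carry the fusion from this description and the title of the series, since no genotype, treatment, age or time is given for single samples, nor the promoter that drives the fusion. Lineage-marked cells (Cd5, Cd11b, B220, Gr-1, Ter119) were removed before sorting, and gates are given for granulocyte-macrophage progenitors (GMP) and for long-term haematopoietic stem cells. The labels neither explain what separates LTearly from LTlate, nor tie a library to a gate, nor state that replicates are separate animals. Each p-value therefore rests on a spread between samples, which may in part be technical. Wild-type progenitors (wtGMP, 4 libraries) and a further group (BMTGMP, 3 libraries) share the fit, so the spread was estimated over their libraries too. Their levels are quoted only as reference.

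Depth differed between the groups. The counts on genes came to 2696036 to 8695227 per LTearly library and to 11569325 to 15092528 per LTlate library. The LTearly libraries were also less alike, with rank correlations over genes of 0.836 to 0.875 among themselves, against 0.915 to 0.925 among LTlate libraries and 0.851 to 0.913 between the groups. LTearly replicate 4, the deepest LTearly library at 8695227 counts, lay nearest to LTlate, at 0.901 to 0.913. Of 1108 olfactory receptor genes, which bone marrow is not known to use, 194 to 636 had a count in LTearly libraries and 196 to 319 in LTlate libraries, and their summed level was 341 to 1817 against 233 to 382 CPM (the usual depth-scaled count, here with TMM-scaled totals). LTearly replicate 4 gave the lowest LTearly number and sum, 194 genes and 341 CPM. The olfactory measure was chosen after the data were seen. The libraries were also thinned to equal depth as an alternative analysis, described at the end. Beyond that, the part of depth or of such low-level counts in any result at weakly detected genes was not tested. An eighth library is titled LTearly in its sample label, while its column in the count table is named LTlate. It was left out of the comparison, and its values are given separately.

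In the MLL-AF9 fusion, the DNA-binding part of MLL, a histone methyltransferase encoded by Kmt2a in mice, is joined to AF9 (Mllt3), a subunit of complexes that drive transcript elongation. It keeps HOX genes and their cofactors switched on in blood progenitors and causes acute myeloid leukaemia. Which programme such a leukaemia runs, from stem cell factors such as Mecom to granule genes of maturing neutrophils, is known to vary with the cell in which the fusion starts. The epithelial-mesenchymal transition (EMT) is the switch by which epithelial cells become motile, and some of its regulators are active in blood cells too.

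LTearly cells carried more RNA for the transcriptional repressor and EMT driver Zeb1, the granulocyte colony-stimulating factor receptor Csf3r, the cytokine Osm, the growth-arrest gene Gadd45a and the receptor Igf2r. They carried less RNA for the eosinophil granule protein Prg2, the galectin Lgals1, the stem cell adaptor Lmo2 and the tRNA synthetase Kars. Of 14542 genes tested, 18 rose in LTearly and 20 fell relative to LTlate, at an adjusted p under 0.05 in edgeR's quasi-likelihood test with Benjamini-Hochberg adjustment. That is 0.124% and 0.138% of the genes. The calls were not equally firm over 18 alternative analyses, and counting the eighth library as LTlate left 0 calls by edgeR. Zeb1 and Lgals1 were called in 17, Csf3r in 16 and Gadd45a, Igf2r and Kars in 15. Prg2 was called in 12, Lmo2 in 11 and Osm in 9. The other called genes ranged from 4 (Six4) to 16 (C3 and Mef2d). With median-ratio size factors in place of TMM scaling, 17 rose and 10 fell, and DESeq2 called 178 higher (1.22% of genes) and 78 lower (0.536%). With only LTearly and LTlate in the fit, 18 rose and 8 fell, and 14 of the 38 genes were called again. Prg2, Osm, Lmo2 and Kars were among those not called in that fit. The median log2 fold change of all genes was 0.07 as fitted and 0.19 with median-ratio factors, so a change is read against these values. Without replicate LTlate 4 the calls dropped to 3 higher and 1 lower, without LTlate 3 to 5 and 5, without LTearly 2 to 11 and 11, without LTlate 2 to 12 and 13 and without LTearly 3 to 16 and 12. Without LTearly 4 they rose to 67 higher and 131 lower. At 36 of the 38 called genes the higher group averaged at least 5 CPM, and at these no LTearly library overlapped an LTlate library. Among all genes tested, no overlap was seen at 4.11% with LTearly higher and at 6.6% with LTearly lower. In bulk samples, fewer cells of a type and less RNA per cell cannot be told apart.

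**Figure D1:**
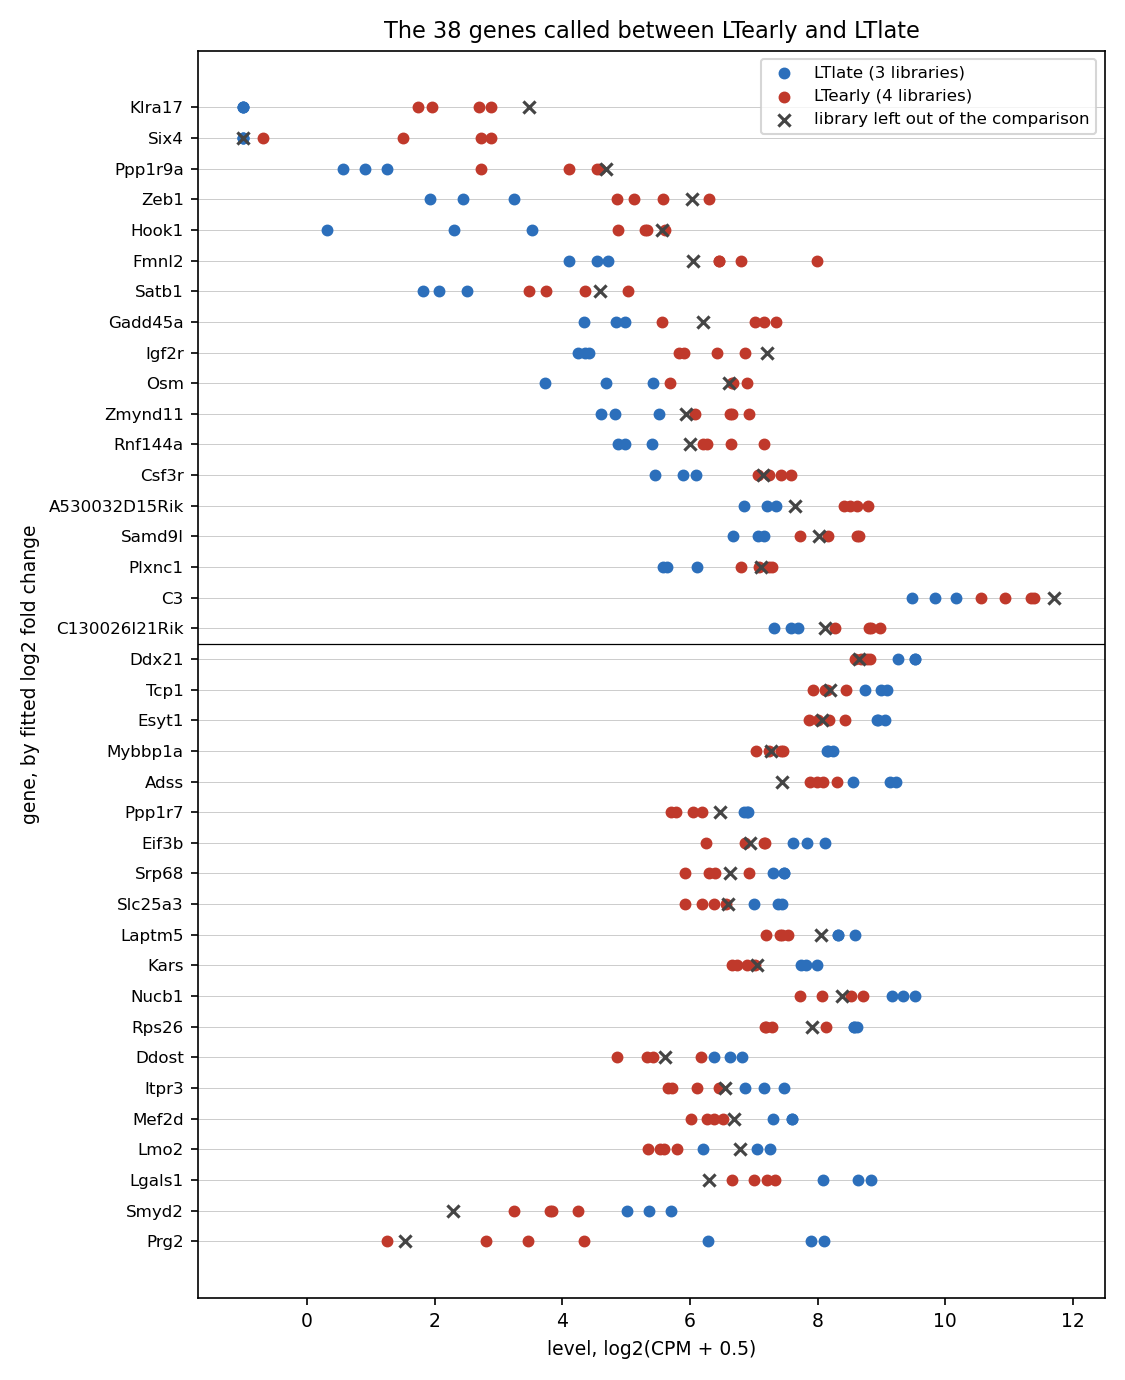
Each line is 1 of the 38 genes called between LTearly and LTlate, ordered by fitted log2 fold change, with the level of every library on the x axis as log2(CPM + 0.5). Red points are the 4 LTearly libraries, blue points the 3 LTlate libraries and crosses the library left out. Above the horizontal line LTearly was higher (18 genes), below it lower (20 genes), and no gene shows a blue point among the red ones.

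Among transcription and chromatin regulators, Zeb1 had the smallest p of all genes. Its level was 78.1, 47.2, 34.4 and 28.6 CPM in LTearly replicates 1 to 4 and 8.99, 4.96 and 3.29 CPM in LTlate replicates 2 to 4. Every LTearly library lay above every LTlate library, and wild-type progenitors stood at 36.5 ± 14.3 CPM (SD, n = 4), on the LTearly side. The log2 fold change was 3.03 ± 0.46 (SE), a ratio of group means of 8.19, with an adjusted p of 0.00566. Zeb1 passed the threshold in 17 of 18 alternative analyses, the exception being the count of the left-out library as LTlate (1.21, adjusted p = 0.712). Satb1, an organiser of chromatin loops, rose by 2.24 ± 0.50 from a low level, with 10.7, 32.1, 19.9 and 12.96 CPM in LTearly and 5.20, 3.01 and 3.70 CPM in LTlate (adjusted p = 0.0466). The lowest LTearly value is 10.7 CPM and the highest LTlate value 5.20. Zmynd11, a reader of a histone H3 methyl mark, rose as well by 1.59 ± 0.29 (adjusted p = 0.0124), and its LTearly libraries ran from 67.4 to 122 CPM against 24.001 to 45.04 CPM. The homeobox gene Six4, a known MLL fusion target, had no count in LTlate and 56 counts over LTearly, 6.88, 2.35, 6.15 and 0.118 CPM by library. Over the pooled counts it was at least 36.8-fold higher, with a floor of 3 counts over the LTlate group (adjusted p = 0.0466). LTearly replicate 4 was close to 0 at Six4, so the bound does not describe each library. The Six4 call held in only 4 of 18 alternatives. Its counts, like those of Klra17 below, lie in the range where olfactory receptor genes also gave counts.

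Receptors and secreted signals made up a further part of the genes that rose. Csf3r, the receptor through which granulocyte colony-stimulating factor drives neutrophil output, stood at 191, 134, 172 and 151 CPM in LTearly and at 68.1, 43.2 and 58.7 CPM in LTlate. All 4 LTearly libraries lay above the wild-type mean of 84.3 ± 21.2 CPM and all 3 LTlate libraries below it. The change was 1.51 ± 0.24 (adjusted p = 0.00602). Osm, which encodes the cytokine oncostatin M, rose by 1.79 ± 0.37 (adjusted p = 0.0319). Its LTearly values were 102, 101, 118 and 51.4 CPM and its LTlate values 25.2, 12.8 and 42.2 CPM, so LTearly replicate 4 came near the highest LTlate one. Igf2r, the receptor that clears insulin-like growth factor and sorts lysosomal enzymes, rose by 1.998 ± 0.34 (adjusted p = 0.0105). At 20.95, 20.02 and 18.4 CPM the LTlate libraries were close together, while LTearly spread over 59.8, 85.8, 116 and 56.4 CPM. Plxnc1, a semaphorin receptor, rose by 1.32 ± 0.25 (adjusted p = 0.0124), from a mean of 55.4 ± 11.9 to 138 ± 19.5 CPM. The complement gene C3 was the most abundant gene that rose, with 1961, 2697, 1507 and 2594 CPM in LTearly and 1154, 918 and 715 CPM in LTlate (1.24 ± 0.21, adjusted p = 0.00712). Plxnc1 and C3, like Samd9l, C130026I21Rik and Klra17 below, lie outside the rule for naming genes and were chosen after their values were seen.

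Fmnl2, Hook1 and Ppp1r9a, which bind the cytoskeleton, are described as single genes. Fmnl2, a formin that extends actin filaments at the leading edge of moving cells, rose by 2.63 ± 0.48 (adjusted p = 0.0256). LTearly replicate 1 stood far above the others at Fmnl2, with 254, 111, 87.2 and 86.9 CPM against 25.7, 22.8 and 16.8 CPM in LTlate. Without LTearly replicate 1 Fmnl2 had a log2 fold change of 2.13 (adjusted p = 0.0185). Fmnl2 was called in 13 of 18 alternatives, and not after thinning to equal depth (2.50, adjusted p = 0.251). Hook1, a microtubule adaptor for endosomes, rose by 2.85 ± 0.56 (adjusted p = 0.0319) and reached 28.7, 39.9, 38.7 and 48.4 CPM in LTearly. Its LTlate values of 0.742, 11.1 and 4.45 CPM differed widely among themselves. Ppp1r9a, which encodes the actin-binding protein neurabin, rose by 3.59 ± 0.67 (adjusted p = 0.0124), with 22.8, 23.7, 16.7 and 6.12 against 1.90, 0.974 and 1.37 CPM. The lowest LTearly library at Ppp1r9a was again replicate 4.

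The remaining genes that rose had other roles. Gadd45a, a growth-arrest gene induced by DNA damage, had 143, 129, 163 and 46.8 CPM in LTearly and 31.1, 28.3 and 19.9 CPM in LTlate. Replicate 4 was again the LTearly library nearest to LTlate, and the change was 2.18 ± 0.39 (adjusted p = 0.0124). The ubiquitin ligase gene Rnf144a rose by 1.52 ± 0.34 (adjusted p = 0.0466) and the interferon-inducible gene Samd9l by 1.36 ± 0.28 (adjusted p = 0.0398). Samd9l ran from 210.5 to 399.6 CPM in LTearly and from 102 to 142 CPM in LTlate. The lectin-like receptor gene Klra17 had no count in LTlate and 95 counts in LTearly (2.85, 3.39, 6.88 and 6.01 CPM). Over the pooled counts it was at least 62.4-fold higher (adjusted p = 0.0493), and the call held in 6 of 18 alternatives. A530032D15Rik (1.45 ± 0.25, adjusted p = 0.00764) and C130026I21Rik (1.21 ± 0.24, adjusted p = 0.0208) rose too. These 2 genes belong to a family of near-identical copies, and Klra17 to the Ly49 family, so shared reads make their separate values uncertain.

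Among the genes that fell, Prg2 changed most. This gene encodes the major basic protein of eosinophil granules. Its level was 1.90, 6.52, 10.5 and 19.8 CPM in LTearly and 77.1, 274 and 238 CPM in LTlate. The highest LTearly library is 19.8 CPM and the lowest LTlate library 77.1 CPM, and the change was -4.29 ± 0.70 (adjusted p = 0.0395). Lgals1, which encodes galectin-1, a lectin that modulates adhesion and immune cells, fell by 1.48 on the log2 scale (SE 0.24, adjusted p = 0.00602). It stood at 101, 162, 128 and 148 CPM in LTearly against 271, 398 and 458 CPM in LTlate, on either side of the wild-type level of 228 ± 25.6 CPM. Like Zeb1, Lgals1 passed in 17 of 18 alternatives. Lmo2, an adaptor that bridges stem cell transcription factors, fell by 1.33 (SE 0.26, adjusted p = 0.0209), with 47.9, 45.9, 40.2 and 55.4 CPM in LTearly and 73.7, 132 and 152 CPM in LTlate. The LTearly libraries were close to wild type at Lmo2 (57.3 ± 18.6 CPM). Smyd2, a lysine methyltransferase, fell by 1.59 (adjusted p = 0.0209), and Mef2d, a MADS-box transcription factor, by 1.201 (adjusted p = 0.00925). Mef2d stood at 82.3, 76.6, 64.4 and 91.3 CPM in LTearly against 193, 157 and 195 CPM in LTlate.

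Several further genes that fell are described one by one, without a list or an enrichment test. Kars, the lysyl-tRNA synthetase, fell by 1.02 (adjusted p = 0.00712), with 129, 101, 106 and 118 CPM in LTearly and 226, 214 and 254 CPM in LTlate. The initiation factor gene Eif3b fell by 0.96 (adjusted p = 0.0363) and the ribosomal protein gene Rps26 by 1.08 (adjusted p = 0.0363). Rps26 has processed pseudogenes that share its reads. Ddost, a subunit of the enzyme that attaches sugars to new proteins, fell by 1.09 (adjusted p = 0.0466), and Srp68, part of the particle that brings ribosomes to the endoplasmic reticulum, by 0.98 (adjusted p = 0.0363). The Golgi calcium-binding gene Nucb1 went from a mean of 655 ± 81.7 CPM in LTlate to 316 ± 93.3 CPM in LTearly, a fall of 1.05 (adjusted p = 0.0103). In the nucleolus, the helicase gene Ddx21 fell by 0.72 (adjusted p = 0.0406) and Mybbp1a by 0.89 (adjusted p = 0.0121).

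The calcium channel gene Itpr3 (-1.16, adjusted p = 0.0401), the lysosomal gene Laptm5 (-1.01, adjusted p = 0.0188) and the mitochondrial phosphate carrier gene Slc25a3 (-1.01, adjusted p = 0.0246) fell by about as much. Laptm5 had 146, 185, 170.1 and 174 CPM in LTearly and 384, 318 and 320.1 CPM in LTlate. The chaperonin subunit gene Tcp1 (-0.78 ± 0.17), the purine synthesis gene Adss (-0.92 ± 0.20), the membrane tether gene Esyt1 (-0.85 ± 0.18) and the phosphatase regulator gene Ppp1r7 (-0.94 ± 0.20) complete the 20 genes, at adjusted p of 0.0458, 0.0458, 0.0425 and 0.0421. Adss, Eif3b, Esyt1, Mybbp1a, Ppp1r7, Srp68 and Tcp1 were named after their values were seen.

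**Figure D2:**
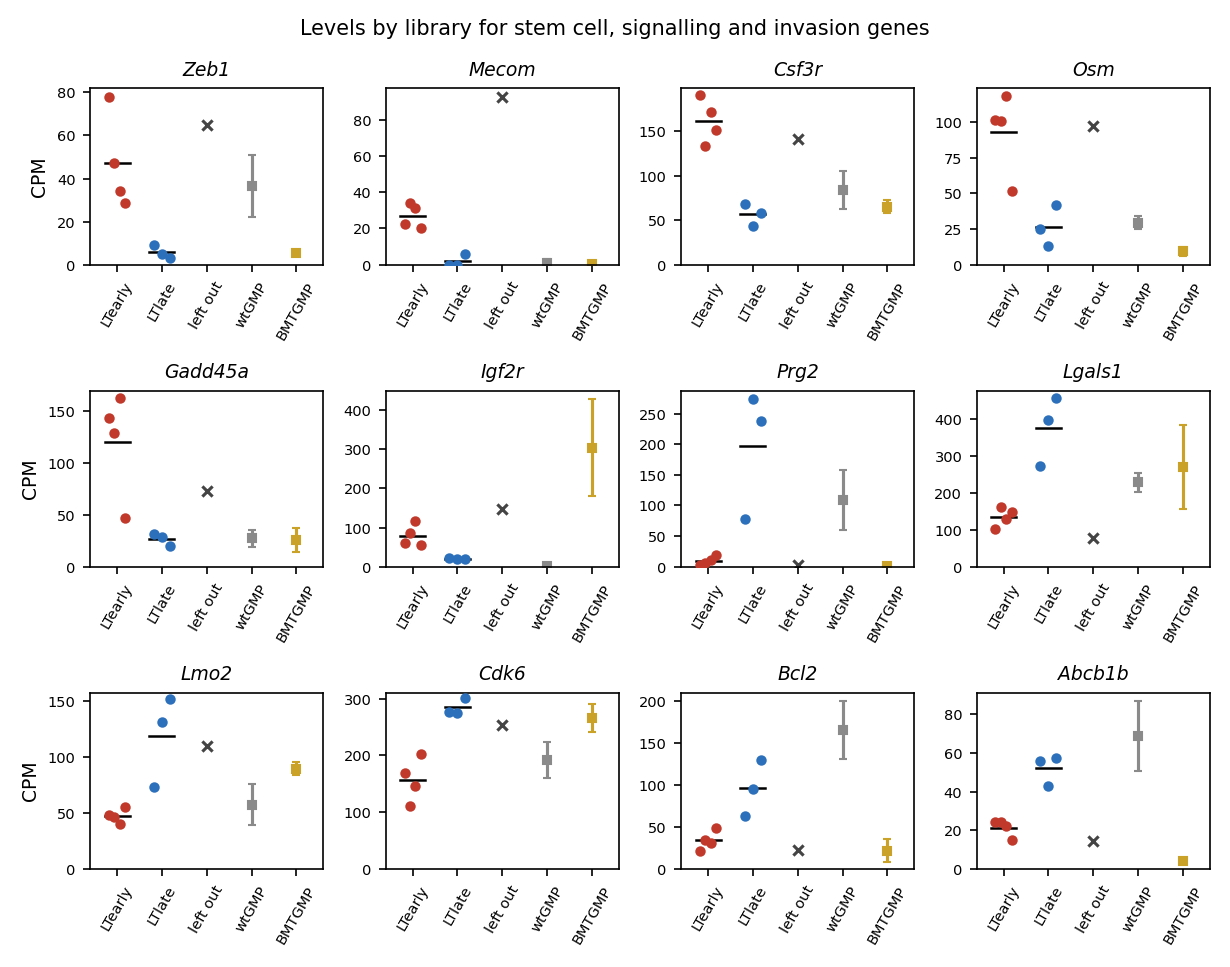
Levels in CPM on linear axes that start at 0, for 12 genes named in the text. Red and blue points are LTearly and LTlate libraries with their means as black lines, the cross is the library left out, and squares are means with SD of wtGMP (4 libraries) and BMTGMP (3 libraries). Zeb1, Csf3r, Osm, Gadd45a and Igf2r lie higher in LTearly without overlap, and Prg2, Lgals1 and Lmo2 lower.

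The gene lists follow, with edgeR's calls. Of the genes named below under the naming rule that edgeR did not call, DESeq2 called Abcb1b, Bcl2, Cd34, Cdk6, Dkc1, Npm1 and Utp20 lower in LTearly, and Cd177, Cybb, Dsc2, Eda2r, Fpr2, Il1b, Il5ra, Il6st, Ly6a, Mpo, Oasl1, Oasl2, Prrx1 and Wfdc21 higher. Without LTearly replicate 4, edgeR called Bcl2, Cd34, Cdk6, Dkc1, Krt18, Mcm3, Npm1 and Utp20 lower. In that fit it called Cd14, Cebpb, Cybb, Ddx58, Eda2r, Fgr, Fpr2, Il1b, Nfkbiz, Oasl2, Plaur, Slc2a3 and Wfdc21 higher.

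Stem cell regulators did not move as a group. Of 20 tested, 0 rose and 1 fell (Lmo2), 4 had an unadjusted p under 0.05 with LTearly higher and 2 with LTearly lower, and their median log2 fold change was -0.03 against 0.07 for all genes. Among all genes 6.4% had such a p with LTearly higher and 5.98% with LTearly lower. Without LTearly replicate 4 the numbers over all 13667 genes tested were 947 higher and 1090 lower, with a median of 0.055. Without LTearly replicate 3 they were 833 higher and 691 lower of 14533 genes, with a median of 0.087. Mecom, which encodes the stem cell factor EVI1, stood at 22.3, 34.1, 31.1 and 20.4 CPM in LTearly, and its LTlate libraries at 0, 0 and 5.82 CPM. The groups did not overlap, but 1 LTlate library had counts and the other two had none, and the change of 3.77 ± 1.83 was not called (adjusted p = 0.436). Prdm16, a relative of Mecom, had 10.9, 8.34, 10.9 and 10.4 CPM against 1.81, 1.51 and 0.0685 CPM (3.15 ± 1.35, adjusted p = 0.363). Cd34, the progenitor surface marker, ran the other way with 13.5, 39.9, 12.7 and 63.1 CPM against 94.9, 107 and 149 CPM (-1.83 ± 0.44, adjusted p = 0.107). DESeq2 called Cd34 (adjusted p = 0.00391), as did edgeR without LTearly replicate 4 (-2.37, adjusted p = 0.00328). The groups did not overlap at Cd34, and both lay below the wild-type mean of 250.2 ± 28.4 CPM. Erg, a transcription factor of the stem cell circuit, differed by -0.33 ± 0.32 (adjusted p = 0.786), and its LTearly values of 54.1, 88.4, 48.1 and 89.4 CPM overlapped those of LTlate (79.3, 91.3 and 94.01 CPM).

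MLL fusion targets were likewise split. Of 25 tested, 1 rose (Six4) and 0 fell, 1 had an unadjusted p under 0.05 with LTearly higher and 4 with LTearly lower, and the median was -0.09. Hoxa9, the homeobox gene most tied to MLL fusions, overlapped between groups at 120.1, 57.1, 60.8 and 66.3 CPM and 63.9, 98.4 and 81.3 CPM (-0.09 ± 0.28, adjusted p = 0.951). Its partner Meis1 overlapped too, with 152, 100.1, 128 and 32.5 against 88.7, 150.5 and 128 CPM (-0.25 ± 0.41, adjusted p = 0.9). Cdk6, a kinase that opens the G1 phase, missed the threshold narrowly. Every LTearly library at Cdk6 (169, 110.00, 146 and 203 CPM) lay below every LTlate library (277, 276 and 302 CPM), with a change of -0.86 ± 0.19 (adjusted p = 0.0526). The survival gene Bcl2 had 21.4, 34.7, 30.05 and 48.8 CPM against 62.5, 95.6 and 129.6 CPM (-1.50 ± 0.34, adjusted p = 0.0634), and Myc 19.2, 39.1, 45.2 and 31.9 against 66.1, 61.3 and 68.8 CPM (-0.95 ± 0.28, adjusted p = 0.138). DESeq2 called Cdk6 (adjusted p = 0.0141) and Bcl2 (adjusted p = 0.0177). The mouse partner genes of the fusion were not called, Kmt2a at 326 ± 81.1 against 307 ± 21.8 CPM on average (adjusted p = 0.931) and Mllt3 at 7.15 ± 4.99 against 7.18 ± 5.06 CPM (adjusted p = 0.994). Neither value measures the human transgene, whose reads are counted only where they align to mouse transcripts.

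Late neutrophil genes stood higher in LTearly as a list, although edgeR called only Csf3r among them. Of 30 tested, 1 rose and 0 fell, and 14 had an unadjusted p under 0.05 with LTearly higher and 0 with LTearly lower. DESeq2 called 6 higher and edgeR without LTearly replicate 4 called 4. The median log2 fold change was 1.37. Their summed level was 22760 to 35672 CPM in LTearly libraries and 7744 to 16160 CPM in LTlate libraries, without overlap. Wfdc21, a small secreted inhibitor of proteases, had 63.1, 116, 219 and 45.1 against 18.3, 7.79 and 9.80 CPM (3.21 ± 0.79, adjusted p = 0.122). The formyl peptide receptor gene Fpr2, a sensor of bacterial peptides, had 49.1, 15.6, 94.8 and 16.96 against 11.1, 2.13 and 4.93 CPM (2.85 ± 0.69, adjusted p = 0.0649). Both were lowest in LTlate without overlap.

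Further genes of the list, for granule proteins and alarmins, were chosen after their values were seen. S100a9, a subunit of calprotectin, had 7032, 10140.1, 12269 and 5434 CPM in LTearly and 3125, 2225 and 1900.2 CPM in LTlate (1.85 ± 0.60, adjusted p = 0.289). The lactoferrin gene Ltf had 3071, 5044, 3386 and 2131 against 1285, 857 and 711 CPM (1.84 ± 0.57, adjusted p = 0.275) and the cathelicidin gene Camp 714, 1349, 611 and 657 against 278, 280.3 and 244 CPM (1.64 ± 0.58, adjusted p = 0.328). The groups did not overlap at these genes, and all 7 libraries stood far above wild type, where S100a9 averaged 44.001 CPM. Cd177, a neutrophil surface glycoprotein, had 622, 822, 952 and 456 against 327, 219.99 and 224 CPM (1.47 ± 0.41, adjusted p = 0.188). The matrix protease gene Mmp9 (0.22 ± 0.56) and the granule gene Retnlg (0.39 ± 0.98) overlapped between groups. LTearly replicate 3 was highest at several of these genes, and Cxcr2, the chemokine receptor that draws neutrophils to tissue, stood at 70.95, 84.2, 423 and 55.8 CPM in LTearly. Without that library 8 of the list's genes had an unadjusted p under 0.05 with LTearly higher and 0 with LTearly lower, and the median was 1.05.

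Primary granule genes, which promyelocytes switch on earlier, had a median of 0.06 over 16 tested, and edgeR called 0 of them (3 higher and 1 lower in LTearly at an unadjusted p under 0.05, 1 called higher by DESeq2). Without LTearly replicate 4, 2 were higher and 5 lower at such a p and the median was -0.11. Myeloperoxidase, Mpo, had 544, 1974, 921 and 4794 CPM in LTearly and 250.1, 401 and 537 CPM in LTlate, without overlap but with a wide spread in LTearly (2.38 ± 0.65, adjusted p = 0.203). DESeq2 called Mpo (adjusted p = 0.00397), and without LTearly replicate 4 its log2 fold change was 1.56 (adjusted p = 0.122 by edgeR). All 7 libraries lay below the wild-type mean of 17579.8 CPM. The ficolin gene Fcnb had 116, 414, 106 and 568 against 58.7, 73.7 and 93.7 CPM (adjusted p = 0.359). Of 23 myeloid transcription factors, edgeR called 0 (1 at an unadjusted p under 0.05 in each direction, 0 by DESeq2), with a median of 0.08. Cebpb, which drives emergency granulocyte production, had 181, 120.2, 256 and 66.3 against 115, 70.3 and 75.4 CPM (0.84 ± 0.31, adjusted p = 0.307), and Cebpa, needed for the first granulocyte steps, 17.3, 50.3, 54.3 and 81.4 against 87.3, 89.4 and 82.1 CPM (-0.76 ± 0.31, adjusted p = 0.343). The groups overlapped at Cebpb and all but touched at Cebpa.

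Monocyte and macrophage genes had a median of 0.37 over 30 tested, and edgeR called 0 of them (3 at an unadjusted p under 0.05 with LTearly higher and 0 with LTearly lower, 1 called higher by DESeq2). Without LTearly replicate 3 there were 3 on each side at such a p and the median was -0.01. Cybb, the catalytic subunit of the phagocyte oxidase, had 2208, 1749, 2216 and 1589.8 CPM in LTearly and 1312, 1242 and 957 CPM in LTlate (0.73 ± 0.20, adjusted p = 0.107). The lipopolysaccharide co-receptor gene Cd14 had 129.8, 59.4, 74.2 and 22.5 against 33.7, 15.2 and 16.3 CPM (1.71 ± 0.56, adjusted p = 0.248). Among 30 cytokine receptor and JAK-STAT genes, Csf3r was the only call by edgeR, and DESeq2 called 4 higher. Il6st, the shared signalling chain of the receptors for oncostatin M and related cytokines, had 70.5, 92.01, 85.1 and 72.2 against 47.9, 42.3 and 40.8 CPM, without overlap (0.87 ± 0.23, adjusted p = 0.0948). Csf2ra, a receptor chain for granulocyte-macrophage colony-stimulating factor, had 318, 326, 385 and 283 against 485, 422 and 474 CPM (-0.49 ± 0.16, adjusted p = 0.235). The beta-2 integrin genes Itgam (-0.01 ± 0.24, adjusted p = 0.996) and Itgb2 (-0.19 ± 0.19, adjusted p = 0.808) overlapped between the groups.

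**Figure D3:**
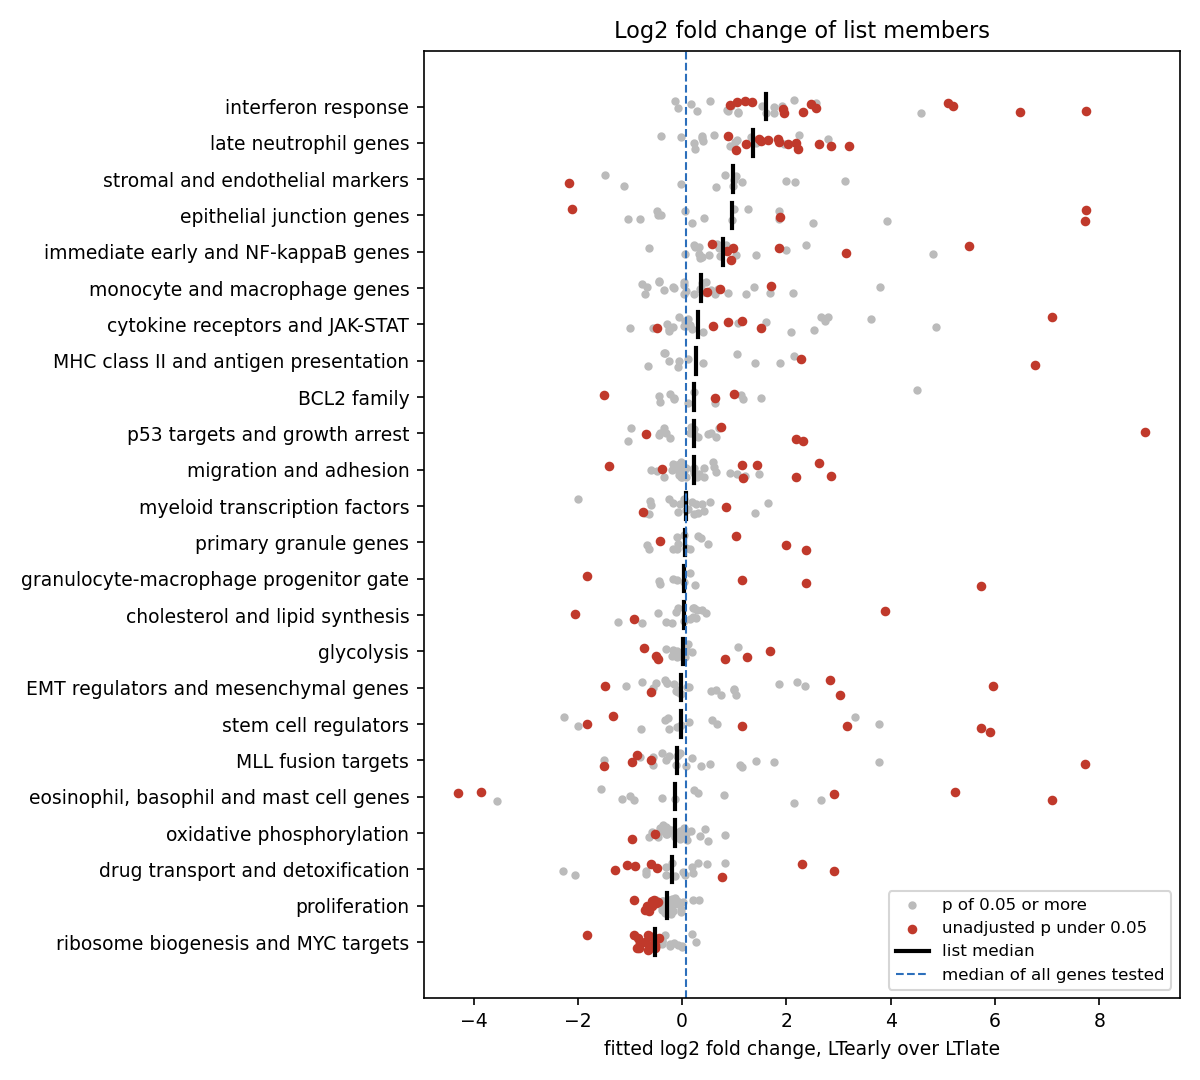
Fitted log2 fold change, LTearly over LTlate, of the tested members of 24 gene lists with at least 11 members tested. Each point is a gene, red where its unadjusted p was under 0.05, black bars are list medians and the dashed line is the median of all genes tested (0.07). The interferon (1.61) and late neutrophil (1.37) medians lie farthest to the right and the ribosome biogenesis median (-0.53) farthest to the left.

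Interferon response genes had the highest median of any list, 1.61 over 31 genes tested, but edgeR called 0 of them. At an unadjusted p under 0.05, 13 were higher and 0 lower in LTearly, and DESeq2 called 2 higher and 0 lower. LTearly replicate 3 stood far above the rest in the summed level. This was 1275, 856, 4778 and 782 CPM in LTearly replicates 1 to 4 and 711, 792 and 804 CPM in LTlate. Single genes differed, and Ddx58 and Ifit1, given below, were highest in LTearly replicate 1. Without LTearly replicate 3, 4 genes had an unadjusted p under 0.05 with LTearly higher, 0 with LTearly lower, and the median was 0.80. The oligoadenylate synthetase-like gene Oasl2, an antiviral effector, had 19.7, 3.65, 68.4 and 6.24 CPM in LTearly and 0.412, 0 and 0.343 CPM in LTlate (6.47 ± 1.52, adjusted p = 0.0831). All 4 LTearly libraries lay above LTlate at Oasl2, and also at Zbp1, a sensor of viral nucleic acid, with 12.1, 10.4, 64.1 and 6.83 against 3.55, 2.66 and 5.55 CPM (adjusted p = 0.278). The RNA sensor gene Ddx58 overlapped between groups, with 117, 29.5, 45.6 and 14.3 against 20.3, 16.6 and 23.98 CPM (adjusted p = 0.299). Oasl1 had no count in LTlate and at least 35.4-fold more in LTearly over the same floor (adjusted p = 0.308).

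The upstream sequence of interferon genes is shown because the list shares letters known to bind interferon-activated factors. These are GAAA and, after any 2 bases, GAAA again, read on both strands. This motif was searched after the data were seen, in windows of 250 bases before to 50 after each start, from RefSeq on GRCm38.p6. It was present in 14 of 31 windows of the interferon list (45.2%, 25 genes with a window) and in 3.44% of all 32851 windows. The late neutrophil list held it in 1 of 26 windows (3.85%) and the called genes in 3 of 41 windows (7.32%, 32 of the 38 genes with a window). The stretches below end 30 bases before the RefSeq start, run 5′ to 3′ on the gene's strand, and carry the motif in capitals. The stretch of Isg15 is chr4:156200849-156201068 (minus strand), that of Ifit1 chr19:34640639-34640858 (plus strand) and that of Plxnc1 chr10:94944876-94945095 (minus strand).
Isg15: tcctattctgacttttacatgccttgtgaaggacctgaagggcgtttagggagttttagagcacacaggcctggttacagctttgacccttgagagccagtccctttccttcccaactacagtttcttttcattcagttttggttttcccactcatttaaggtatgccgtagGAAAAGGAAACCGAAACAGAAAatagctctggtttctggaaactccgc
Ifit1: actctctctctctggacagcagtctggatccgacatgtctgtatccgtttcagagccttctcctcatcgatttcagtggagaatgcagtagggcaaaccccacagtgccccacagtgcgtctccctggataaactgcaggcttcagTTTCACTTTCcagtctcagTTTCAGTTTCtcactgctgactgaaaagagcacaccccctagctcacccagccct
Plxnc1: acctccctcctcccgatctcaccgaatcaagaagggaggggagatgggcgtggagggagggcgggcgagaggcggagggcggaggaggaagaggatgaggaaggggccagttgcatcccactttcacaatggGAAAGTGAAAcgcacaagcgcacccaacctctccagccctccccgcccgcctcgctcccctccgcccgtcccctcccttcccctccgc
The match in Isg15 is made of 3 overlapping copies, Ifit1 holds 2 separate copies on the opposite strand, and Plxnc1, a called gene outside the list, holds 1. The ubiquitin-like modifier gene Isg15 had 7.36, 0.261, 7.96 and 0.353 CPM in LTearly and 1.73, 0.0886 and 1.30 CPM in LTlate (adjusted p = 0.821), and Ifit1, which blocks translation of viral RNA, 16.6, 6.52, 5.79 and 3.77 against 0.495, 0.177 and 0 CPM (adjusted p = 0.345). The groups overlapped at Isg15 and not at Ifit1. A match is a description of these letters, not a bound site.

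Other short motifs were read in the same windows of the called genes. Zeb1, Osm, Lgals1, Prg2, Lmo2 and Srp68 had no window, so the shares do not cover them. The GATA motif AGATAA was present in 2 of 41 windows (4.88% against 11.2% of all windows) and the E-box CACCTG, which Zeb1 and Snai proteins bind, in 6 (14.6% against 20.2%). The ETS core GAGGAA was present in 12 (29.3% against 28.3%) and the C/EBP half-site TTGCGC in 5 (12.2% against 6.49%). In the 26 windows of the late neutrophil list GAGGAA was present in 16 (61.5%), CACCTG in 8 (30.8%), AGATAA in 5 (19.2%) and TTGCGC in 0. In the 31 windows of the interferon list the numbers were 11 (35.5%), 5 (16.1%), 6 (19.4%) and 0 in the same order. The overlaps between motifs were not counted.

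**Figure D4:**
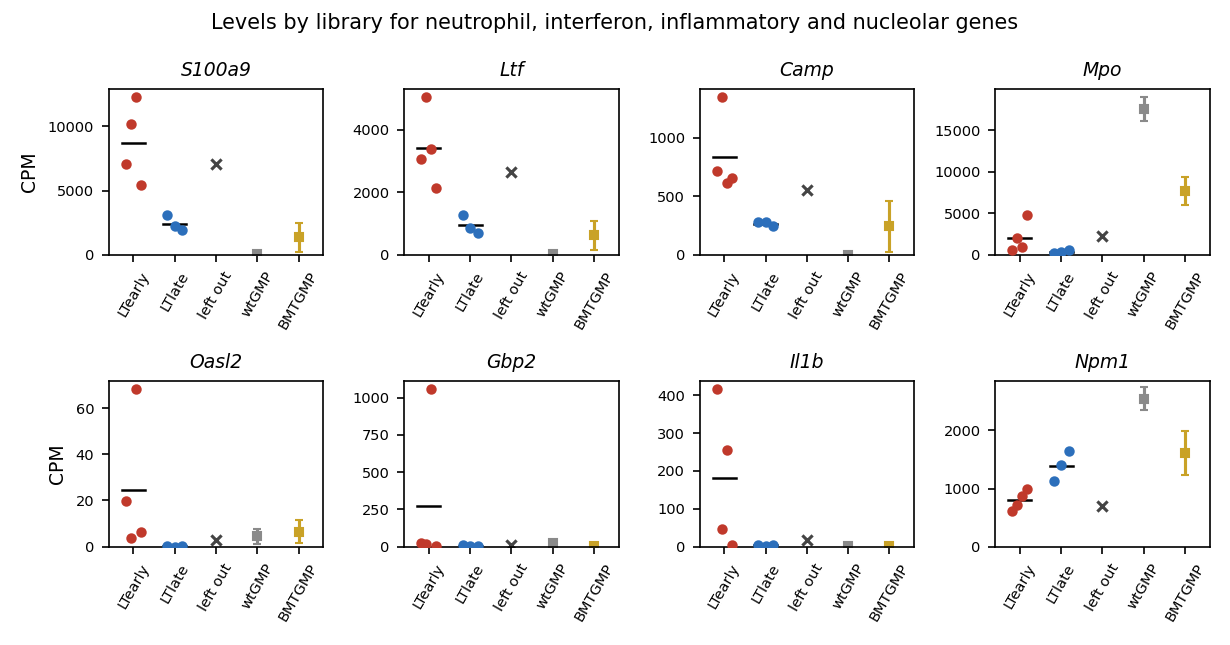
Levels in CPM on linear axes that start at 0, with symbols for LTearly (red), LTlate (blue), the library left out (cross) and the mean with SD of wtGMP (4 libraries) and BMTGMP (3 libraries). S100a9, Ltf and Camp are higher in every LTearly library, Gbp2 is carried by a single LTearly library at 1059.9 CPM, Il1b by 2 of them, and Npm1 is lower in every LTearly library.

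Inflammatory genes were uneven among the LTearly libraries. Of 26 immediate early and NF-kappaB genes, edgeR called 0, with 7 at an unadjusted p under 0.05 with LTearly higher and 0 with LTearly lower, 2 called higher by DESeq2, and a median of 0.79. Il1b, the cytokine interleukin-1 beta, had 418, 46.7, 257 and 4.83 CPM in LTearly and 4.95, 1.51 and 5.41 CPM in LTlate (5.50 ± 1.34, adjusted p = 0.138). Replicates 1 and 3 were high and replicate 4 fell among the LTlate values. Ptgs2, the inducible cyclooxygenase, had 55.8, 9.91, 15.9 and 4.95 against 3.55, 0 and 3.77 CPM (3.13 ± 1.08, adjusted p = 0.273). Nfkbiz, an inhibitor-like regulator of NF-kappaB, had 196, 136, 177 and 44.5 against 63.3, 60.9 and 86.7 CPM and Fosl2, an AP-1 subunit, 135, 93.8, 132 and 68.1 against 69.4, 60.1 and 46.9 CPM. LTearly replicate 4 lay within or next to the LTlate range at Il1b, Ptgs2, Nfkbiz and Fosl2. Without that library 11 genes of the list had such a p with LTearly higher and 0 with LTearly lower, and 3 were called higher.

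Ribosome biogenesis genes and MYC targets stood lower in LTearly. Of 32 tested, 0 rose and 1 fell (Ddx21), while 18 had an unadjusted p under 0.05 with LTearly lower and 0 with LTearly higher, and the median was -0.53. The summed level was 5641, 7278, 6701 and 9010.3 CPM in LTearly replicates 1 to 4 and 11412, 11584 and 12374 CPM in LTlate. No LTearly library reached the lowest LTlate sum. Npm1, the nucleolar chaperone often mutated in human acute myeloid leukaemia, had 613, 722, 865 and 994 against 1127, 1402 and 1646 CPM (-0.80 ± 0.18, adjusted p = 0.0526). Utp20 (-0.82 ± 0.20, adjusted p = 0.0635), needed for small ribosomal subunits, and Dkc1 (-0.81 ± 0.20, adjusted p = 0.0789), which modifies ribosomal RNA, were not called either. DESeq2 called 6 of the list lower, and edgeR without LTearly replicate 4 also 6. Both groups lay below wild type at Npm1 (2548 ± 199 CPM).

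Proliferation genes showed a smaller shift in the same direction. EdgeR called 0 of 38, as did DESeq2, with 9 at an unadjusted p under 0.05 with LTearly lower and 0 with LTearly higher, and a median of -0.29. Mcm3, a subunit of the replication helicase, had 281, 368, 239.6 and 475 against 470.00, 513 and 609 CPM (-0.64 ± 0.19, adjusted p = 0.139), overlapping through LTearly replicate 4. Birc5 (survivin), which guides chromosome segregation, had 85.4, 135, 108 and 98.8 against 176, 165 and 180.1 CPM, without overlap (-0.70 ± 0.21, adjusted p = 0.147). Of 29 oxidative phosphorylation genes edgeR called 0 (2 lower and 0 higher at an unadjusted p under 0.05, 0 by DESeq2, median -0.14). Glycolysis genes were split, with 3 of 20 on each side at such a p, 0 called by edgeR or DESeq2 and a median of 0.02. The glycolytic enzyme gene Gapdh had 152, 153, 171 and 146 against 284, 251 and 239.9 CPM (-0.73 ± 0.20, adjusted p = 0.0948), without overlap, and the glucose transporter gene Slc2a3 117, 107, 185 and 34.3 against 47.6, 32.8 and 22.7 CPM (1.68 ± 0.57, adjusted p = 0.287).

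Genes of eosinophils, basophils and mast cells stood on both sides. Of 17 tested, 0 rose and 1 fell (Prg2), with 3 higher and 2 lower at an unadjusted p under 0.05 and a median of -0.13. The mast cell protease gene Cpa3 had 3.08, 0, 0 and 2.59 CPM in LTearly and 0.577, 21.7 and 43.9 CPM in LTlate, where LTlate replicate 2 fell among the LTearly values (-3.85 ± 1.18, adjusted p = 0.222). That library was also the lowest LTlate library at Prg2. Il5ra, the eosinophil receptor chain for interleukin-5, ran the other way, with 91 counts over LTearly and 1 over LTlate, a pooled ratio of 179 (95% exact counting interval 31.4 to 7154, adjusted p = 0.207). Gata2, a factor of mast cell and stem cell fate, had 0, 0.261, 22.4 and 5.06 against 16.005, 28.96 and 36.4 CPM (-2.003 ± 1.07, adjusted p = 0.491). The summed level of the list was 117, 126, 245 and 188 CPM in LTearly and 185, 476 and 435 CPM in LTlate. The part of eosinophil-lineage cells in the Prg2 values was not tested.

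EMT and adhesion genes had medians near that of all genes. Of 29 EMT regulators and mesenchymal genes, 1 rose (Zeb1) and 1 fell (Lgals1), 3 had an unadjusted p under 0.05 with LTearly higher and 2 with LTearly lower, and the median was -0.03. Loxl2, a collagen cross-linking enzyme, had 8.31, 3.91, 5.07 and 2.71 against 0.990, 0.0886 and 0.959 CPM (2.84 ± 1.23, adjusted p = 0.36). The homeobox gene Prrx1 had 93 counts over LTearly and 3 over LTlate, a pooled ratio of 61.0 (95% exact counting interval 20.3 to 301.3, adjusted p = 0.328). Fibronectin, Fn1, chosen after its values were seen, overlapped widely, with 1982, 1099, 2523 and 1046 against 6949.6, 2606 and 951 CPM (-1.08 ± 0.70, adjusted p = 0.631). Among 42 migration and adhesion genes edgeR called 0, with 6 higher and 2 lower at such a p, 2 called higher by DESeq2, and a median of 0.22. Without LTearly replicate 4 edgeR called 4 of them higher and 0 lower, with 11 higher and 2 lower at such a p and a median of 0.35. Plaur, the urokinase receptor, had 189.8, 143, 131 and 67.3 against 77.3, 52.6 and 48.4 CPM (1.16 ± 0.34, adjusted p = 0.139). The Src-family kinase gene Fgr (1.15 ± 0.36, adjusted p = 0.207) was not called.

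Epithelial junction genes had a median of 0.96 over 19 tested, and edgeR called 0 of them (3 higher and 1 lower at an unadjusted p under 0.05, 1 called higher by DESeq2). Without LTearly replicate 4 edgeR called 0 higher and 1 lower, with 2 higher and 1 lower at such a p and a median of 0.51. Dsp, which encodes desmoplakin, a plaque protein of cell junctions, had 743, 646, 168 and 713 CPM in LTearly and 96.4, 187 and 179.9 CPM in LTlate (1.88 ± 0.74, adjusted p = 0.36). Replicates 1, 2 and 4 stood together and replicate 3 fell within the LTlate range. Without LTearly replicate 3 the change at Dsp was 2.23 (adjusted p = 0.331). The desmosomal cadherin gene Dsc2 had no count in LTlate and 84 in LTearly, at least 55.1-fold more (adjusted p = 0.279), at 4.51, 3.91, 1.09 and 5.54 CPM by library. The splicing regulator gene Esrp1 had no count in LTlate and was seen in only 2 LTearly libraries. Such low counts lie in the range where olfactory receptor genes also gave counts.

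Growth control, survival and drug response genes were mixed. Of 21 p53 targets and growth-arrest genes, 1 rose (Gadd45a) and 0 fell, 2 were called higher by DESeq2, and the median was 0.22. The p53 target Eda2r, a death receptor of the tumour necrosis factor family, had no count in LTlate and 147 in LTearly, at least 96.5-fold more (adjusted p = 0.0846), at 15.2, 13.8, 1.81 and 2.94 CPM by library. Btg2, an antiproliferative gene, had 172, 277, 275 and 206 against 132, 148 and 136 CPM, without overlap (0.74 ± 0.25, adjusted p = 0.253). Of 15 BCL2 family genes edgeR called 0 (2 higher and 1 lower at an unadjusted p under 0.05, 1 called lower by DESeq2, median 0.24). Mcl1, which protects myeloid cells from death, had 544, 514, 809 and 324 against 363, 333 and 371 CPM (0.62 ± 0.28, adjusted p = 0.378), while Bcl2, described above, ran lower in LTearly. Of 23 drug transport and detoxification genes edgeR called 0 (3 higher and 5 lower at such a p, 1 each way by DESeq2, median -0.20). The efflux pump gene Abcb1b had 24.2, 23.98, 22.1 and 14.8 against 55.7, 42.8 and 57.6 CPM, without overlap (-1.29 ± 0.30, adjusted p = 0.0556). Among 19 cholesterol and lipid synthesis genes edgeR called 0 (1 higher and 2 lower at such a p, 1 called lower by DESeq2, median 0.03). In the MHC class II and antigen presentation list (14 genes tested) edgeR called 0 (2 higher and 0 lower at such a p, 1 higher by DESeq2, median 0.26). The class II transactivator gene Ciita was highest in LTearly replicate 3, with 0, 2.87, 14.5 and 0.824 CPM by library, and without that library no gene of the list had such a p with LTearly higher and 1 had it with LTearly lower.

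Markers of other cell types summed to at most 371 CPM per list in any library of both groups. Summed levels were 14.7 to 27.5 CPM in LTearly and 8.94 to 19.96 CPM in LTlate for 10 B cell markers, 19.2 to 44.9 CPM in LTearly and 13.02 to 18.5 CPM in LTlate for 12 T and NK cell markers, 60.2 to 96.6 CPM in LTearly and 50.8 to 72.6 CPM in LTlate for 10 erythroid markers and 15.4 to 25.3 CPM in LTearly and 11.96 to 18.98 CPM in LTlate for 7 megakaryocyte markers. Dendritic cell markers gave 127 to 166 CPM in LTearly and 138 to 199 CPM in LTlate, and stromal and endothelial markers 118 to 179.97 CPM in LTearly and 121 to 371 CPM in LTlate, the latter led by the adhesion gene Vcam1 (101, 68.8, 79.3 and 154 against 86.6, 323 and 246 CPM). Wild-type sums were lower than both groups for dendritic cell markers (71.0 to 118 CPM) and stromal and endothelial markers (21.5 to 67.9 CPM). They were higher than both groups for erythroid markers (110 to 179 CPM). B cell and megakaryocyte sums overlapped the wild-type range. T and NK cell sums did not overlap between LTearly and LTlate, with wild type at 19.1 to 32.3 CPM. EdgeR called 0 of the 45 tested markers of these 6 lists, DESeq2 called 0 as well, and 1 was higher and 1 lower at an unadjusted p under 0.05. The B cell marker Ms4a1 and the plasmacytoid dendritic cell marker Siglech were seen mainly in LTearly replicate 3, the library with the highest interferon sum, at 7.24 and 19.9 CPM. The part of such cells in the interferon values was not tested.

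Genes of the antigens used for sorting were read as a check of the gates. Kit, present in both gates, had 25.9, 54.7, 31.1 and 91.99 CPM in LTearly and 8.002, 33.5 and 27.9 CPM in LTlate, below the wild-type mean of 194 CPM (1.15 ± 0.49, adjusted p = 0.371). Ly6a, which encodes Sca-1, a marker of the stem cell gate, had 76 counts over LTearly and 3 over LTlate (pooled ratio 49.9, 95% exact counting interval 16.4 to 247), mostly from LTearly replicate 3. Fcgr3, a receptor of the progenitor gate, had 345, 222, 368 and 344 against 436, 492 and 368 CPM (-0.44 ± 0.21, adjusted p = 0.409). Itgam, the gene of Cd11b, an antigen used for depletion, stood at 1295, 1364, 1688 and 869 CPM in LTearly and 1668, 1172 and 1091 CPM in LTlate, against 56.98 ± 18.7 CPM in wild type.

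The library with conflicting names resembled neither group throughout. At the 38 called genes its value lay within the LTearly range alone at 18, within the LTlate range alone at 2, beyond LTearly and away from LTlate at 7, and elsewhere at 11. It held 64.8 CPM of Zeb1, 141 of Csf3r, 2.41 of Prg2 and 77.9 of Lgals1. At Six4 it had no count. Its level of Mecom, 92.8 CPM, lay above all 7 libraries compared, as did that of Meis1, 416 CPM. Counted as LTearly it gave 33 genes higher and 53 lower. Counted as LTlate it left 0 calls by edgeR, with 1507 genes at an unadjusted p under 0.05. No group is drawn for it from these values.

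**Figure D5:**
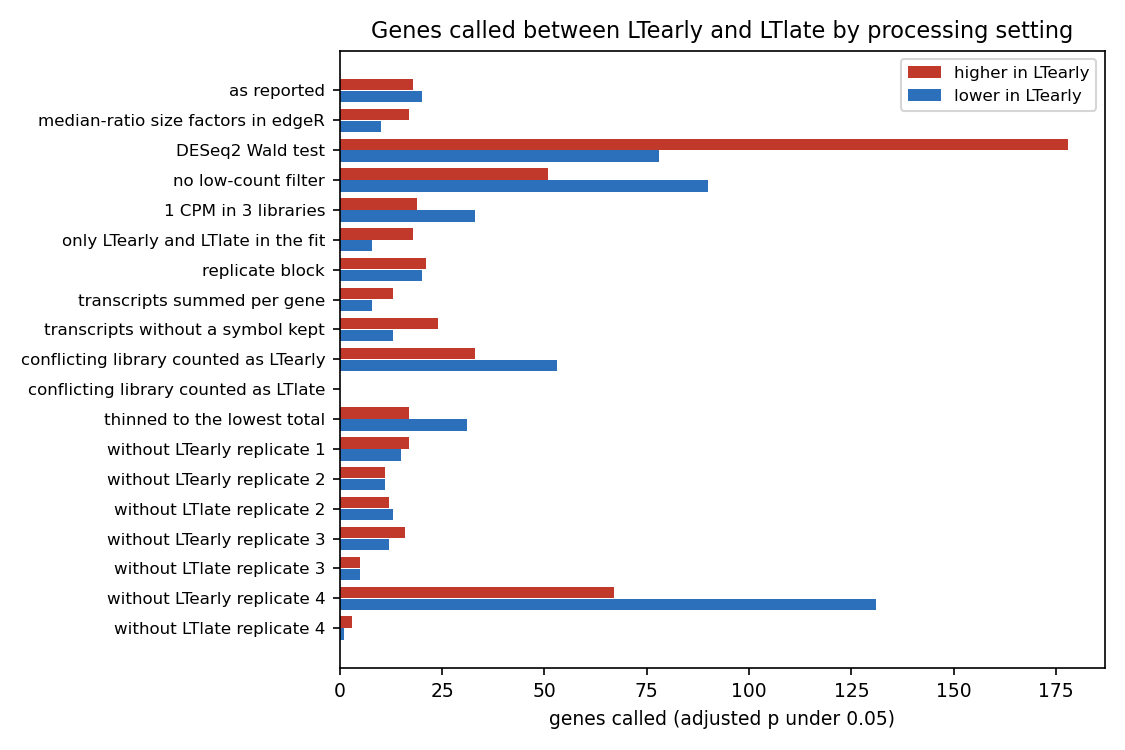
Number of genes called higher (red) and lower (blue) in LTearly, at an adjusted p under 0.05, under each of 18 alternative analyses and as reported (18 and 20). The bars start at 0. DESeq2 (178 and 78) and the fit without LTearly replicate 4 (67 and 131) gave the most calls, and counting the conflicting library as LTlate gave 0.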

How the data were processed

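RNA-seq was done on sorted bone marrow cells with a low-input library kit and an Illumina HiSeq, per the labels' protocols. The authors deposited 1 table of 28847 RefSeq transcripts. Its unit is an expected count: per the file headers, reads on mm9 with up to 100 hits were counted, and 13.75% of the values are not whole (tolerance 1e-06). The aligner named, per the submitters' processing notes, is Bowtie 0.9.9.1. Whether counting used strand is not given in the sources used here. A further column matches no sample and was not used (1 column).

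Transcripts were matched to symbols (26092 of them, 25977 through RefSeq and 115 through GENCODE), and each of 20453 genes is represented by 1 transcript, that of the highest mean count, after rounding. The 14 libraries with a group entered a single fit with a mean per group in edgeR 4.0.16 (R 4.3.3), with TMM scaling, the filterByExpr filter and the robust quasi-likelihood test. The contrast was LTearly minus LTlate, 2-sided, called at a Benjamini-Hochberg adjusted p under 0.05 over 14542 genes. The common biological coefficient of variation was 0.748. SE was taken from the log2 fold change and the F statistic (their ratio, with F under a square root). Depth was 2696036 to 15092528 counts in the libraries compared, and counting intervals and floors (3 counts over a group) cover counting error only. They rest on counts pooled over each group, not on the spread between libraries.

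Named genes are, of the called genes, the 12 that rose most and the 12 that fell most with at least 5 CPM and no overlap, up to 4 members of each of 29 lists with the smallest p, and Kmt2a, Mllt3, Zeb1, Mecom, Erg, Hoxa9, Meis1, Itgam, Itgb2, Mpo, Prg2 and Abcb1b. Any other gene was named after its values were seen, among them 12 of the 38 called genes. The lists hold 618 genes, 614 of them in the table. The comparison, its members and the lists were chosen with earlier results of these data known, and list counts are descriptions without a test. Alternatives were DESeq2 1.42.0, median-ratio size factors, other low-count filters, the 2 groups alone, the replicate number as a block, summed transcripts, transcripts without a symbol, the conflicting library in either group, thinning to equal depth, and each library left out in turn. Genome coordinates of genes are not given, because the annotation used is of another build than mm9, and the upstream stretches are RefSeq sequence on GRCm38.p6. Some genes that the naming rule picks are not reported here.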

Additional observations from a re-analysis of the deposited data

Results flagged for a closer look

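In groups of 4, a library far from the other three is marked when its gap to the nearest one takes up most of the group's range (Dixon's critical value at 95%), which chance does in about 1 in 20 groups. Of 146 named genes, 13 had such an LTearly library, 7 of them replicate 3, 3 replicate 4, 2 replicate 1 and 1 replicate 2. Replicate 3 was the highest at the class II gene H2-Eb1 (30.1 CPM), the Sca-1 gene Ly6a (16.3 CPM), the B cell gene Ms4a1 (7.24 CPM), the dendritic cell gene Siglech (19.9 CPM) and the interferon gene Zbp1 (64.1 CPM), and the lowest at desmoplakin (Dsp, 168.0 CPM) and Kmt2a (204.5 CPM). Replicate 4 was the highest at the keratin gene Krt18 (8.13 CPM), the basophil protease gene Prss34 (2.12 CPM) and Rps26 (279.5 CPM). Replicate 1 was the highest at Fmnl2 (253.7 CPM) and Hoxa9 (120.1 CPM), and replicate 2 the lowest at the Fc receptor gene Fcgr3 (221.6 CPM).

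The library with conflicting names enters no comparison and is marked because it exceeded every wtGMP library at 8 named genes. It held 394.4 CPM of Kmt2a, 64.8 of Zeb1, 92.8 of Mecom, 108.9 of Erg, 122.2 of Hoxa9, 415.6 of Meis1, 1534 of Itgam and 701.9 of Itgb2. At Mecom and Meis1 it also lay above every LTearly and LTlate library.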

How the results depend on the processing

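All 38 called genes kept their direction in the 18 alternatives, but their number did not hold. Most alternatives reuse the same libraries, in which these genes did not overlap between the groups, so a kept direction adds little. Among all genes, calls higher and lower in LTearly were 18 and 20 as reported, 17 and 10 with median-ratio size factors, 178 and 78 with DESeq2, 51 and 90 without a low-count filter, and 19 and 33 with a filter of 1 CPM in 3 libraries. They were 18 and 8 with only LTearly and LTlate in the fit, 13 and 8 with transcripts summed per gene, 24 and 13 with transcripts without a symbol kept, and 17 and 31 after thinning to 2469452 counts. With the conflicting library counted as LTearly they were 33 and 53, and with it counted as LTlate 0 and 0 by edgeR. Leaving out a library gave 3 to 67 higher and 1 to 131 lower, the extremes being without LTlate replicate 4 and without LTearly replicate 4. Fewer samples entered each of those fits, and without LTearly replicate 4 the calls rose. The cause was not tested. Of the 38 genes, 38 were called again by DESeq2, 25 with median-ratio factors, 14 with only both groups in the fit and 27 after thinning. Adss, Fmnl2, Hook1, Itpr3, Klra17, Rnf144a, Satb1, Six4, Slc25a3, Smyd2 and Tcp1 were not called after thinning. Thinning also lowered the counts, and the part of depth in these lost calls was not tested.

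The replicate number as a block gave 21 higher and 20 lower, with 29 of the 38 genes called again. Whether the numbers pair the samples is not stated in the labels. The deviations of same-numbered LTearly and LTlate libraries correlated at -0.003 (replicate 2), -0.017 (replicate 3) and 0.115 (replicate 4). LTearly replicate 4 correlated best with its own number, and LTearly replicates 2 and 3 did not. Deviations from the means of groups this small are tied to each other, so these values cannot decide the pairing. The block also called Cd34, Cdk6 and Wfdc21. The titles carry a further code, not explained in them, that LTearly 1 shares with LTlate 3 (correlation -0.016) and LTearly 3 with LTlate 2 (0.081). The library with conflicting names carries the same code as LTearly 3 and LTlate 2. This code was not used as a block.

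Of the genes not called, Hoxa9, Itgam, Mllt3, Kmt2a and Meis1 changed sign, while Erg, Itgb2, Abcb1b, Mpo and Mecom kept theirs. Hoxa9 had a log2 fold change of 0.035 with median-ratio factors, 0.035 with DESeq2, 0.063 with the conflicting library as LTearly, 0.0024 after thinning and -0.40 to 0.056 with a library left out. For Itgam the values were 0.12, 0.12, 0.031 and 0.093 in the same order, 0.037 with only both groups in the fit, 0.030 with transcripts summed, 0.040 with transcripts without a symbol and -0.14 to 0.19 with a library left out. Mllt3 had 0.098, 0.10, 0.19 and 0.24 in the first order, 0.028 with only both groups, 0.0030 with the replicate block, 0.27 with transcripts summed, 0.024 with transcripts without a symbol and -0.52 to 0.71 with a library left out. Kmt2a was -0.016 with the conflicting library as LTlate, and Meis1 0.43 with it as LTearly and -0.51 to 0.072 with a library left out.

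Depth limits the lowest genes: the thinnest LTearly library has 2696036 counts, so 3 counts correspond to about 1 CPM, and the LTearly libraries give the wider spread at such levels. With 4 and 3 libraries, a difference that missed the threshold is not shown to be absent.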
